A study of Mus musculus with 4 samples.

Results

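TRAV6 is a family of variable segments of the T-cell receptor alpha chain in the mouse. Its chains were taken as every contig of the alpha locus (TRA) whose variable segment was named TRAV6-, TRAV6D- or TRAV6N-, in a pair of receptor libraries. A contig is a receptor transcript rebuilt from the reads of 1 cell barcode, and a productive contig is one marked as encoding an intact chain. This rule found 31 productive contigs in 31 cells of the ATRA library, of 147 productive TRA contigs, and 0 in the control library, of 34. It also found 5 nonproductive contigs in the ATRA library and 3 in the control library, which makes 39 TRAV6 contigs of 655 contigs in all. The family was chosen by its share of productive chains in these same libraries, so that share is given as a description and without a test.

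The receptor libraries came from C57BL6 mice that received 50000 cells of glioma neurospheres in the striatum when 6 weeks old. The study, by its title, asked about retinoic acid signaling in gliomas with mutant IDH. One group was then given all-trans retinoic acid (ATRA, a vitamin A metabolite that acts through nuclear receptors) at 10 mg/kg every other day into the peritoneum, and the other a control that the labels do not describe further. Animals were killed when signs of disease of the central nervous system appeared, so the length of treatment was not fixed. Each treatment had 1 receptor library, made from CD45-sorted immune cells of the tumor and the brain around it. The number of mice behind each library and the genotype of the injected cells are not given in the sources used here. With 1 library a treatment, no difference between treatments has a replicate check, and every interval below covers counting error only. Expression was not analysed here, so the T cells are known by their receptors alone.

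The alpha chain is assembled in the thymus by joining 1 V segment to 1 J segment. The V segment encodes the loops CDR1 and CDR2, which mostly touch the presenting molecule, and the start of the loop CDR3, which mostly touches the peptide. Both alleles of the alpha locus are often rearranged, so a cell can carry a second alpha transcript, and an out-of-frame join on either allele gives a nonproductive one. Such an out-of-frame chain makes no receptor and is not itself selected for what it recognises. In C57BL6 mice much of the V region is duplicated in large blocks, and the letters D and N in a name mark copies of a segment in such blocks. TRAV6-7-DV9 can also be used by delta chains, hence the DV in its name.

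The CDR3 nucleotides of the TRAV6 chains found in 2 or more ATRA cells are shown first, each with a chain that shares its V or J segment. They run from 5′ to 3′, and capitals mark the bases between the start and the end that the chains of each group have in common.
TRAV6-6 with TRAJ39, 7 cells: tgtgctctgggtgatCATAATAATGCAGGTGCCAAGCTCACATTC
TRAV6-6 with TRAJ22, 2 cells: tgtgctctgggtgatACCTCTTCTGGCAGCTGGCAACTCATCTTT
TRAV6-7-DV9 with TRAJ44, 2 cells: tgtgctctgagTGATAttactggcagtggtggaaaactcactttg
TRAV6-7-DV9 with TRAJ44, 1 cell: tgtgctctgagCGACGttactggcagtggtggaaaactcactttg
TRAV6-7-DV9 with TRAJ40, 2 cells: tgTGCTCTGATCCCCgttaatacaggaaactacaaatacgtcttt
TRAV6N-6 with TRAJ40, 1 cell: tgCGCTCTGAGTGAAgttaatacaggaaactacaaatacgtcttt
TRAV6N-7 with TRAJ9, 2 cells: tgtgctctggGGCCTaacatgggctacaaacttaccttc
TRAV6N-7 with TRAJ9, 1 cell: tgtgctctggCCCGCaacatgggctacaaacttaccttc

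The TRAJ44 and TRAJ9 pairs were the closest chains that used the same V and J segments. Within the TRAJ44 pair the CDR3s differed at 3 nucleotides and 1 amino acid of 15, and within the TRAJ9 pair at 4 nucleotides and 2 amino acids of 13. The TRAJ40 pair, which used different V segments, differed at 6 nucleotides and 2 amino acids. No other pair of distinct TRAV6 chains of equal length differed by 2 or fewer amino acids. Each of the 21 CDR3 amino acid sequences of the family was encoded by 1 nucleotide sequence and carried by 1 V segment, and 0 of them occurred in the control library.

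In productive chains the family was used by 31 of 133 ATRA cells with an alpha chain, 23.3% (exact Clopper-Pearson 95% interval 16.4 to 31.4). It was used by 0 of 34 control cells, where the exact upper limit is 10.3% and a limit of 3 counts is 8.82%. Counted once for each deposited clonotype, the ATRA share was 22.8% of 101, and without the largest TRAV6 clonotype it was 19.0% of 126 cells. Of 47 TRAV segments with a productive ATRA chain, 76.6% had 0 control cells, and outside TRAV6 this held for 26 of 37, or 70.3%. All 10 TRAV6 segments in use had 0 control cells. At the level of families, 23.1% of 13 had 0 control cells. These were TRAV6, TRAV3 with 11 ATRA cells and TRAV19 with 1. The rule used this contrast, so nothing is read from those counts.

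Alpha chains had fewer UMIs in control, though more reads per UMI (12710, against 4337 for ATRA chains outside the family). The 34 control TRA chains had a median of 2 UMIs (unique molecular identifiers, which count captured RNA molecules), against 3.5 for the 116 ATRA chains outside the family. In the family the UMIs ranged from 1 to 8, with quartiles of 2 and 4 around a median of 3. TRAV6 chains were found at every depth. In ATRA they made up 6 of 20 chains with 1 UMI, 30.0% (11.9 to 54.3), 6 of 29 with 2 UMIs, 20.7% (7.99 to 39.7), 12 of 54 with 3 to 4, 22.2% (12.0 to 35.6), and 7 of 44 with 5 or more, 15.9% (6.64 to 30.1). The 11 control chains with 1 UMI and the 11 with 2 UMIs included 0 of the family. In each class the exact upper limit is 28.5%, and a limit of 3 counts is 27.3%. A further 40 control cells had a beta chain (TRB) and no productive alpha chain, so which V segment they used is unknown.

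**Figure D1:**
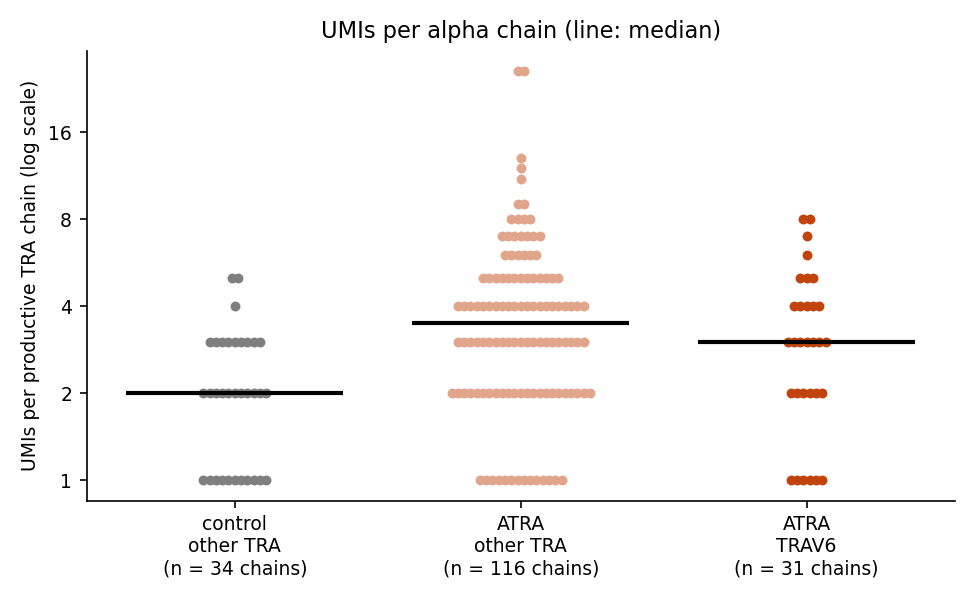
UMIs per productive alpha chain on a log scale, 1 point a chain, for control chains, ATRA chains outside TRAV6 and ATRA TRAV6 chains, with the median as a line. The TRAV6 chains lie between 1 and 8 UMIs around a median of 3, within the range of the other ATRA chains, and the control chains have a median of 2.

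Among nonproductive chains the order of the shares was the other way. TRAV6 made up 3 of the 8 nonproductive control TRA contigs with a V name, 37.5% (8.52 to 75.5), and 5 of 61 in ATRA, 8.20% (2.72 to 18.1). Counted once for each V, J and clonotype, the ATRA contigs were 3 of 51 rearrangements, 5.88% (1.23 to 16.2). The intervals of the libraries overlapped. A nonproductive mark need not be an out-of-frame join. The CDR3 was missing in 3 of 8 nonproductive control alpha contigs and, with or without a V name, in 36 of 67 in ATRA. Some beta CDR3s described below were marked productive in 1 cell and nonproductive in another. Whether the nonproductive TRAV6 contigs were unselected joins was not tested. Over productive and nonproductive contigs with a V name together, TRAV6 made up 3 of 42 control contigs, 7.14% (1.50 to 19.5), and 36 of 208 ATRA contigs, 17.3% (12.4 to 23.1). Counted by cells, a TRAV6 contig of any kind marked 4.05% of the control library (0.844 to 11.4), or 3 of its 74 cells. For the ATRA library the same count was 36 of its 160 cells, 22.5% (16.3 to 29.8). The shares over all contigs and over cells include the productive chains that the family was selected on, so they are descriptions.

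Seen from the family, 0 of 3 control TRAV6 contigs were productive, with an exact upper limit of 70.8%, against 31 of 36 in ATRA, 86.1% (70.5 to 95.3). Among alpha contigs with other V names, 34 of 39 in control were productive, 87.2% (72.6 to 95.7), and 116 of 172 in ATRA, 67.4% (59.9 to 74.4). The 3 control contigs rest on 1, 1 and 2 UMIs. In ATRA the 5 nonproductive contigs rest on 1 to 6 UMIs and the 31 productive ones on 1 to 8. The productive counts in these shares are the ones that the family was selected on, so nothing is read from their difference.

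**Figure D2:**
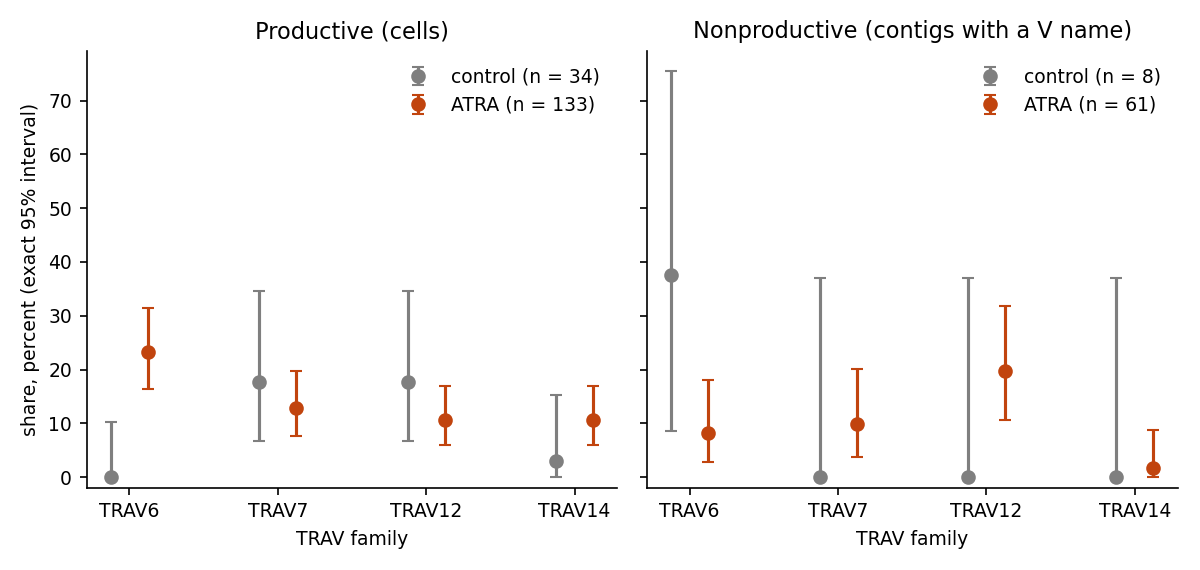
Share of the TRAV6, TRAV7, TRAV12 and TRAV14 families, in percent with exact 95% intervals, among cells with a productive alpha chain (left) and among nonproductive alpha contigs with a V name (right). TRAV6 is at 0 in control and 23.3% in ATRA on the left, and at 37.5% and 8.20% on the right, where the control interval from 8 contigs spans most of the axis.

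The families TRAV7, TRAV12 and TRAV14, taken for comparison, had productive chains in both libraries. TRAV7 had 6 cells in control, 17.6% of 34 (6.76 to 34.5), and 17 in ATRA, 12.8% of 133 (7.63 to 19.7). TRAV12 had 6 cells in control, 17.6%, and 14 in ATRA, 10.5%. TRAV14 had 1 cell in control, 2.94%, and 14 in ATRA, 10.5%. In nonproductive control contigs all 3 of these families had 0 of 8, and in ATRA they had 6, 12 and 1 of 61. Whether TRAV6 differed from these families between the libraries was not tested.

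The nonproductive chains of the family are shown next, because they carry the only TRAV6 sequence of the control library. Their CDR3 nucleotides, where the tables give them, were as follows.
Control, TRAV6-7-DV9 with TRAJ22: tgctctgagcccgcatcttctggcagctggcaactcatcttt
Control, TRAV6-7-DV9 with TRAJ56: tgtgctctgagtgaggggctactggag
ATRA, TRAV6-7-DV9 with TRAJ37: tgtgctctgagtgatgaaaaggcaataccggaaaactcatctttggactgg

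Productive chains of TRAV6-7-DV9 all began with the same 10 bases, tgtgctctga. The control TRAJ22 contig began 2 bases into that start and so was read in another frame of the V segment. The control TRAJ56 and ATRA TRAJ37 contigs kept the start, and the sequence given for each did not end in the phenylalanine that closes most CDR3s. The remaining control contig, TRAV6-6 with TRAJ42 on 1 UMI, had no CDR3 in the table, and that cell had no productive alpha chain. The other 2 control cells had a productive alpha chain outside the family, TRAV12-2 with TRAJ26 on 5 UMIs and TRAV5D-4 with TRAJ57 on 1 UMI.

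All 5 nonproductive ATRA contigs used TRAV6-7-DV9. Of these, 3 joined TRAJ49 in 3 cells of 1 clonotype, on 5, 1 and 6 UMIs, beside a productive TRAV9-2 and TRAJ39 chain on 6, 1 and 5 UMIs and a TRBV29 beta chain. The V and J names of these 3 contigs were the same, and the table gives no CDR3 for them, so their junctions could not be compared. The TRAJ50 contig, on 2 UMIs, lay in a cell whose receptor was TRAV21-DV12 with TRBV26. The cell with the TRAJ37 contig, on 3 UMIs, had no productive alpha chain.

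By segment, the RefSeq annotation of GRCm38.p6 lists 15 TRAV6 segments on chromosome 14 between 52638515 and 53710419, a span of 1072 kb. Of these, 10 were found in productive ATRA chains and none in productive control chains. The 5 not found were TRAV6-1, TRAV6D-6, TRAV6D-7, TRAV6-3 and TRAV6-4. TRAV6-6, at 53516929 to 53517366, was used in 9 cells by 2 distinct chains. TRAV6-7-DV9, at 53709943 to 53710419 and the nearest of the family to the J segments, was used in 6 cells by 4 distinct chains. A distinct chain is 1 combination of V, J and CDR3 nucleotides.

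TRAV6-5 (53491152 to 53491622) and TRAV6N-7 (53318818 to 53319284) were used in 4 cells each, by 4 and 3 distinct chains. TRAV6-2 (52667411 to 52667864) and TRAV6N-6 (53132700 to 53133137) were used in 2 cells each. TRAV6D-3, TRAV6D-4, TRAV6D-5 and TRAV6N-5 were used in 1 cell each. Most of the lead of TRAV6-6 was 1 clone, and over distinct chains TRAV6-5 and TRAV6-7-DV9 came first with 4 each.

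**Figure D3:**
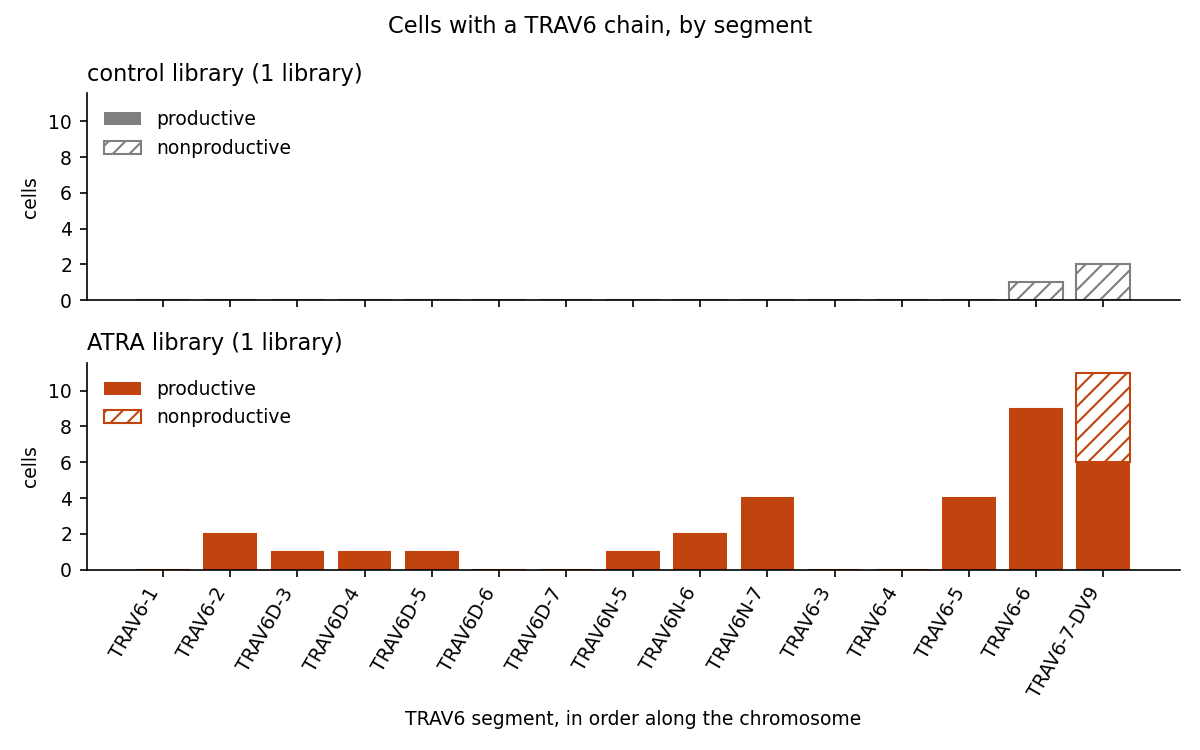
Number of cells with a TRAV6 chain for each of the 15 segments in order along the chromosome, in the control library (top) and the ATRA library (bottom), with solid bars for productive and hatched bars for nonproductive chains. The ATRA cells reach from TRAV6-2 to TRAV6-7-DV9 with 9 productive cells at TRAV6-6, and the control library has 1 nonproductive chain of TRAV6-6 and 2 of TRAV6-7-DV9.

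By letter, segments without one (7 in the annotation) held 21 ATRA cells and 12 distinct chains, the 3 N copies 7 cells and 6 distinct chains, and the 5 D copies 3 cells and 3 distinct chains. The unlettered segments are not 1 block, since they lie both before the D copies and after the N copies. Grouped by number instead, which joins the copies of 1 segment, number 7 was used in 10 cells by 7 distinct chains, number 5 in 6 cells by 6 and number 6 in 11 cells by 4. Numbers 2, 3 and 4 had 2, 1 and 1 cells. Segment 6 lies 25.3, 26.3 and 27.4 kb after segment 5 among the unlettered, D and N segments. The 3 copies of number 6 have 438 bases each in the annotation. The tables give 1 name for each contig and not how near-identical copies were told apart, so the division of cells among copies is uncertain. The count for the family does not depend on it. The count by number does not either, unless a chain was named across numbers, which was not tested.

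The start of the CDR3 nevertheless differed between some copies. Both distinct TRAV6N-6 chains began tgcgctctgagtg, with a TGC codon for the first cysteine, while the other 19 distinct chains of the family began with TGT. The 2 distinct TRAV6-6 chains shared the 15 bases tgtgctctgggtgat, and the 4 TRAV6-5 chains shared tgtgctctgagtg. TRAV6-2 and TRAV6D-5 had a valine codon after the first cysteine where TRAV6-5 and TRAV6N-5 had an alanine codon. The pairs below each share a J segment and use segments of different numbers, with capitals as above. Both chains of the first pair have the valine codon and both of the second the alanine codon.
TRAV6-2 with TRAJ42, 1 cell: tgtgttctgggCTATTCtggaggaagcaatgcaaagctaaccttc
TRAV6D-5 with TRAJ42, 1 cell: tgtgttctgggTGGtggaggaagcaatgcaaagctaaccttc
TRAV6-5 with TRAJ48, 1 cell: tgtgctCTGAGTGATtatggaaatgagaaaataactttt
TRAV6D-3 with TRAJ48, 1 cell: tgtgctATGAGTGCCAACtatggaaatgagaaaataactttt

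In the first pair the start of TRAV6-2 and TRAV6D-5 was the same over the shared bases and the junctions differed in length. In the second the TRAV6D-3 chain had an ATG codon after the alanine codon. Over the 21 distinct chains, 17 began with cysteine, alanine and leucine, which held for 10 of 76 distinct ATRA alpha chains outside the family. Of those 10, 8 were TRAV12 chains, and 8 of 10 distinct TRAV12 chains began so. Aspartate stood at position 5 of the CDR3, counted from the first cysteine, in 9 of 21, 42.9% (21.8 to 66.0), against 4 of 76, 5.26% (1.45 to 12.9). These 4 were 2 of 10 TRAV12 chains, 20.0% (2.52 to 55.6), and 2 of 15 TRAV7 chains, 13.3% (1.66 to 40.5). These first positions are encoded largely by the V segment, which is what the rule selected, so they describe the family and do not test it.

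The CDR3 length is set more by the junction and the J segment. TRAV6 CDR3s averaged 14.3 amino acids (SD 0.902, n = 21 distinct chains) and ranged from 13 to 16, while the other ATRA alpha chains averaged 13.8 (SD 1.45, n = 76) and ranged from 10 to 17. The median was 14 in both. Of the other chains 12 were shorter than 13, and of the TRAV6 chains none was. Among the comparison families in ATRA, TRAV12 averaged 14.4 (SD 1.08, n = 10), TRAV7 14.1 (SD 1.55, n = 15) and TRAV14 13.0 (SD 1.33, n = 10). The net charge, as lysine and arginine less aspartate and glutamate, averaged 0.476 (SD 0.873) in the family and 0.868 (SD 0.854) outside it, with a median of 1 in both. In TRAV12, TRAV7 and TRAV14 the charge averaged 0.7 (SD 1.25), 0.867 (SD 0.640) and 1 (SD 0.471). Distinct chains are not replicates of a condition, and the means were not tested.

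The J segments beside TRAV6 were spread over the locus. The 31 cells used 15 TRAJ segments in 21 distinct chains, from TRAJ49 at 54168686 to TRAJ6 at 54212749 on chromosome 14. TRAJ39 was first with 7 cells, all of 1 clone, and TRAJ40, TRAJ44 and TRAJ9 followed with 3 cells each. Over distinct chains no J segment had more than 2. TRAJ9, in 3 TRAV6N-7 cells and 2 distinct chains, was joined in 0 ATRA alpha chains outside the family. Such chains were found in 107 ATRA cells, among them all 3 TRAJ9 cells, which carried a second alpha chain. Outside the family TRAJ39 was joined in 3 of those 107 cells and TRAJ40 in 6, each in 1 distinct chain. TRAJ44 was joined in 2.

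J segments numbered 25 or lower, the part of the locus farthest from the V segments, were joined in 9 of 21 distinct TRAV6 chains, 42.9% (21.8 to 66.0), and in 20 of 76 others, 26.3% (16.9 to 37.7). The intervals overlapped. The median J number went the other way, at 37 in the TRAV6 chains and 34 in the others, where a higher number lies nearer the V segments. Within the family, TRAV6-7-DV9 joined TRAJ32 to TRAJ44 in productive chains and TRAV6N-7 joined TRAJ9 and TRAJ6 alone. With 4 and 3 distinct chains these ranges are descriptions.

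**Figure D4:**
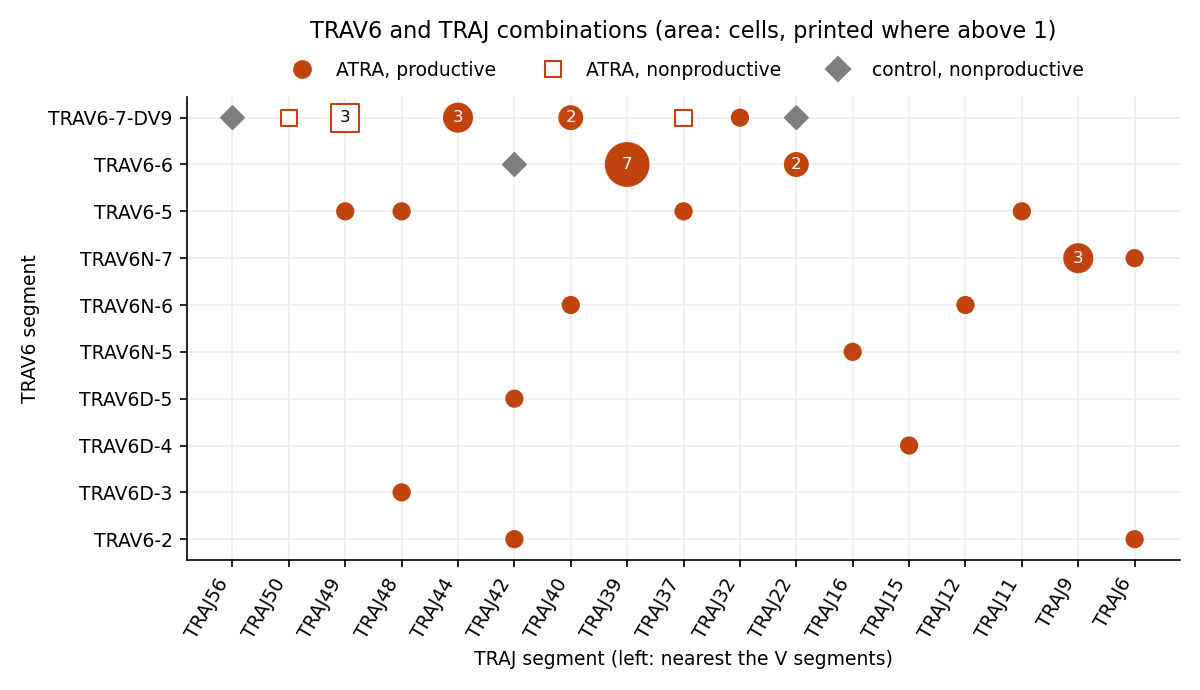
Combinations of TRAV6 segment (vertical, in order along the chromosome) and TRAJ segment (horizontal, the segment nearest the V region at the left), with the area of each mark showing the number of cells. ATRA productive chains fill 15 J segments with 7 cells at TRAV6-6 and TRAJ39, and the 3 control marks, all nonproductive, lie at TRAJ56, TRAJ42 and TRAJ22.

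Clone sizes were described from the deposited clonotype numbers. The 31 cells fell into 23 clonotypes, 20 of a single cell, 2 of 2 cells and 1 of 7 cells. Clonotypes of 2 or more cells held 11 of 31 TRAV6 cells, 35.5% (19.2 to 54.6), and 42 of 107 cells with other alpha chains, 39.3% (30.0 to 49.2), and the intervals overlapped. The 107 cells include the 5 TRAV6 cells with a second productive alpha chain, so these cells stand in both shares. The deposited numbers separated cells that carried 1 alpha chain. By V, J and CDR3 nucleotides there were 21 distinct chains, of which 5 were in 2 or more cells, and these held 15 cells.

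The additional cells came from 2 clones. The TRAV6-6 and TRAJ22 chain lay in 2 cells with different clonotype numbers. In the first it stood on 4 UMIs beside a productive TRBV5 and TRBJ2-2 chain on 2 UMIs. In the second it stood on 6 UMIs, and its TRBV5 and TRBJ2-2 contig, on 1 UMI, was marked nonproductive. The TRAV6N-7 and TRAJ9 chain lay in 2 cells that also shared a TRAV12D-2 and TRAJ18 chain, and a productive beta chain was found in 1 of them.

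The largest TRAV6 clone joined TRAV6-6 and TRAJ39 to TRBV5 and TRBJ2-4 in 7 cells. Its alpha chain was read on 1, 2, 2, 4, 4, 5 and 5 UMIs, and its beta chain on 2, 2, 5, 9, 14, 21 and 24. Of the 7 cells, 5 also held 1 nonproductive TRAV12D-2 and TRAJ16 join, on 2, 2, 4, 7 and 8 UMIs, always with the same CDR3 nucleotides. In the cell with 1 TRAV6 UMI the silent join had 4.

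The chains of this clone were also met in other barcodes of the ATRA library. Its beta CDR3 was found in 3 further cells, as a productive chain on 9 UMIs in 1 and as contigs marked nonproductive on 6 and 3 UMIs in the others. Its silent TRAV12D-2 and TRAJ16 join was found in 2 further cells, on 3 and 1 UMIs, of which the first was the cell with the productive beta chain. None of these cells had a TRAV6 contig. Over all 46 distinct chains with a CDR3 in TRAV6 cells, 6 were also in other ATRA barcodes and 0 in control barcodes. Whether those barcodes held RNA of more than 1 cell was not tested.

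Beside TRAV6, a second productive alpha chain was found in 5 of 31 cells, 16.1% (5.45 to 33.7), against 9 of 102 cells without a TRAV6 chain, 8.82% (4.11 to 16.1). The intervals overlapped. TRAV12D-2 with TRAJ18 accompanied TRAV6N-7 in 2 cells, TRAV14D-1 with TRAJ26 accompanied it in 1, and TRAV14D-1 with TRAJ34 accompanied TRAV6-7-DV9 and TRAJ40 in 2. Neither of those last 2 cells had a productive beta chain. The same TRAV14D-1 and TRAJ34 chain was found without TRAV6 in 2 more ATRA cells, on 12 and 2 UMIs. A nonproductive alpha join outside the family was found in 8 TRAV6 cells, and 18 had no further named alpha contig. No contig of a TRDV, TRGV or immunoglobulin segment was found in a cell with a TRAV6 contig (0 contigs). Whether these libraries could capture such contigs was not tested, so nothing is read from this 0.

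A productive beta chain was found in 26 of 31 TRAV6 cells, 83.9% (66.3 to 94.6), and in 95 of 102 ATRA cells with other alpha chains alone, 93.1% (86.4 to 97.2). The beta chain had more UMIs than the TRAV6 chain in 23 of the 26 paired cells, as many in 1 and fewer in 2. No TRAV6 cell had more than 1 productive beta chain (0 of 31). The 26 cells used 12 TRBV and 10 TRBJ segments in 19 distinct beta chains.

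TRBV5 was the first TRBV partner with 9 of 26 cells, 34.6% (17.2 to 55.7), against 6 of 95 other paired cells, 6.32% (2.35 to 13.2). Of these 9, 7 were the largest clone, and without it TRBV5 was in 2 of 19 cells, 10.5% (1.30 to 33.1). By clonotypes TRBV5 was in 3 of 19, 15.8% (3.38 to 39.6), against 6 of 72, 8.33% (3.12 to 17.3). Both distinct TRAV6-6 chains, with TRAJ39 and TRAJ22, were found with TRBV5, and the remaining TRBV5 cell paired it with TRAV6-5 and TRAJ48.

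The segment named TRBV12-2+TRBV13-2 in the tables came second with 4 of 26 cells, 15.4% (4.36 to 34.9), in 3 clonotypes, against 6 of 95, 6.32%. TRBV1, TRBV10 and TRBV14 came next with 2 cells each. TRBV26 and TRBV29, which were each found with 14 of 95 other paired cells, 14.7% (8.30 to 23.5), were found with 0 of 26 TRAV6 cells. For each 0 the exact upper limit is 13.2%, and a limit of 3 counts is 11.5%. Without cells that used TRAV21-DV12, TRBV26 was in 3 of 78, 3.85% (0.800 to 10.8). By clonotypes, TRBV29 was in 0 of 19 and 10 of 72.

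TRBJ2-1, the main TRBJ segment outside the family with 34 of 95 cells, 35.8% (26.2 to 46.3), was found in 2 of 26 TRAV6 cells, 7.69% (0.946 to 25.1). These intervals did not overlap. They came to overlap when each clonotype was counted once, with 2 of 19, 10.5% (1.30 to 33.1), against 24 of 72, 33.3% (22.7 to 45.4). Without cells that used TRAV21-DV12, TRBJ2-1 was in 19 of 78 others, 24.4% (15.3 to 35.4). TRBJ2-4 was in 8 of 26 TRAV6 cells, 30.8% (14.3 to 51.8), and in 1 of 19, 5.26% (0.133 to 26.0), without the largest clone. In other paired cells it was in 3 of 95, 3.16% (0.656 to 8.95). TRBV26, TRBV29, TRBJ2-1 and TRBJ2-4 were singled out after their values were seen.

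**Figure D5:**
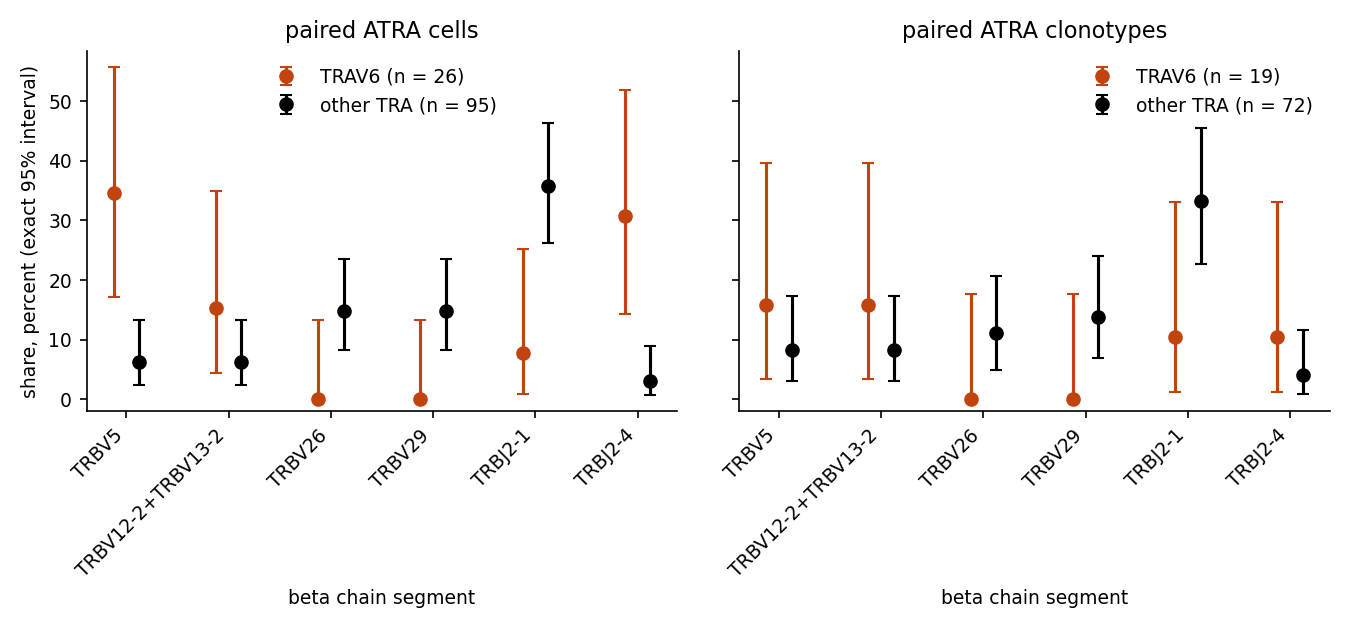
Share of 4 TRBV and 2 TRBJ segments among paired ATRA cells (left) and clonotypes (right), in percent with exact 95% intervals, for TRAV6 cells and for cells with other alpha chains. TRBV5 and TRBJ2-4 stand at 34.6% and 30.8% of TRAV6 cells and at 15.8% and 10.5% of TRAV6 clonotypes, while TRBV26 and TRBV29 are at 0 in both.

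The TRAJ44 chains combined a likeness of both loci. All 3 cells used TRAV6-7-DV9, TRAJ44 and TRBV12-2+TRBV13-2, yet they were 2 clones with different TRBJ segments. The alpha chain stood on 4 and 1 UMIs in the cells of the first clone and on 8 in the second. Their beta CDR3 nucleotides are given here, in capitals beyond the start that they share.
TRBV12-2+TRBV13-2 with TRBJ2-3, 2 cells: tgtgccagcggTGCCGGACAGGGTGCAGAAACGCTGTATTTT
TRBV12-2+TRBV13-2 with TRBJ1-4, 1 cell: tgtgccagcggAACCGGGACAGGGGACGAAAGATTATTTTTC

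The control library was also searched for the beta chains of TRAV6 cells, since its alpha chains were often missing. Of the 19 distinct beta chains, 0 occurred in control with the same nucleotides and 1 with the same amino acids in a productive chain. That chain, TRBV1 with TRBJ1-2, stood on 13 UMIs in the ATRA cell with TRAV6-5 and TRAJ37, whose alpha chain had 1 UMI. In control it stood on 7 UMIs in a cell with no alpha chain, and on 3 UMIs as a contig marked nonproductive in a second cell. The control sequence differed by 1 substitution, A24T, counted from the first base of the CDR3 with the ATRA base first. The capital marks it below.
ATRA: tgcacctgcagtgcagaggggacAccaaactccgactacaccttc
Control: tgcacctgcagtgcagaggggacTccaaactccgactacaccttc

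The alpha chain of the control cell with the productive beta chain is unknown, so whether it used TRAV6 could not be read. The second control cell had an alpha chain, and it was not of TRAV6.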

How the data were processed

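Reads were processed with Cell Ranger 3.1.0 and bcl2fastq 2.20.0 on GRCm38, per the submitters' processing notes. Each contig came with unnormalized UMI and read counts, as deposited and named in the file headers, and with its length, segment names, CDR3 and clonotype number. All contigs were marked as in a cell and of high confidence, so 0 were removed. The control library held 159 contigs in 74 cells with 382 productive UMIs, and the ATRA library 496 contigs in 160 cells with 1841. They shared 0 barcodes. The matching expression data, 1 library a treatment, were not analysed here.

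TRAV6 contigs were selected by name in Python 3.11.15 with pandas 2.3.3, and a productive contig was one marked True. Shares carry exact 95% intervals (scipy 1.17.1), and a count of 0 a limit of 3 counts. The UMIs of 1 cell, cells of 1 clone and contigs of 1 cell are not independent. Coordinates come from RefSeq. The interval functions were tested on simulated data. Named were all TRAV6 segments, all clonotypes of 2 or more cells, the 3 most used TRAJ and TRBV partners with ties, and the families TRAV7, TRAV12 and TRAV14. Members and lists were chosen with earlier results of these data known. Extra chains were kept and no doublet caller was run. No test between treatments was possible with 1 library each.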

Additional observations from a re-analysis of the deposited data

How the results depend on the processing

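No paired analysis was possible because each treatment had 1 library. The TRAV6 share of ATRA cells was 19.0% to 25.2% over the 7 alternatives (a minimum of 2 or of 3 UMIs, cells with both loci, leaving out cells with more than 1 productive beta or more than 2 productive alpha chains, clonotypes or distinct chains counted once, largest clonotype left out), and the control share was 0 under each that could be run. No TRAV6 cell had such extra chains, so that setting kept all 31 and left out only other cells. Control had no TRAV6 clonotype to leave out. Replicates could not be left out in turn with 1 library each. Leaving out contigs marked None gave the same productive share, 86.1%, since 0 TRAV6 contigs were so marked. The number of TRAV6 cells fell from 31 to 19 with at least 3 UMIs per chain, which by construction keeps fewer chains, and these 19 cells still held 10 segments. Segments numbered 9 or 10, and clonotypes 19 to 23, under the other definitions. Among partners, counting clonotypes once took TRAJ39 from 7 to 1, TRBV5 from 9 to 3 and TRBJ2-4 from 8 to 2. The median CDR3 length was 14 over distinct chains and 15 over cells. The alternatives for TRBJ2-1, the UMI classes and the partners without the largest clonotype were chosen after seeing the data. The control shares rest on 34 productive and 8 nonproductive alpha chains.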

Other observations

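Some J segments common elsewhere in the ATRA library were not joined to TRAV6, a contrast picked after the values were seen and not tested. TRAJ34 was joined to other V segments in 17 of 107 cells and 10 distinct chains, and TRAJ53 in 15 cells and 3 distinct chains, while 0 of 31 TRAV6 chains joined either. Of the 17 TRAJ34 cells, 2 also carried a TRAV6 chain, with TRAV14D-1 and TRAJ34 as their second alpha chain. In nonproductive contigs of the ATRA library, TRAV12 led the families compared here with 12 of 61, of which 7 were the TRAV12D-2 and TRAJ16 join found in 5 cells of the largest TRAV6 clone and in 2 other cells.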
